A study of Mus musculus with 12 samples.

Results

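The comparison described here is the average effect of a Crtc2 vector on mouse tibialis anterior, a fast muscle of the shin, taken over animals on 2 diets. It sets the 6 libraries that carried the Crtc2 expression vector against the 6 that carried the control, an empty vector with green fluorescent protein (GFP). All 12 libraries of the series entered it, with diet as a term of the model. No library came from muscle without a vector. Genes said to fall or rise are thus lower or higher with Crtc2 than with GFP. Which of the vectors moved them from the level of untreated muscle cannot be told. Each arm held 3 libraries from muscle of mice fed ad libitum and 3 from mice taken through 3 rounds of alternate day fasting (ADF). All groups were C57BL/6 males aged 13 weeks. The labels do not name the type of vector, its promoter or the cells it reached, nor do they state that each library of a group is another animal. The p-values thus rest on the scatter of these libraries alone, and that scatter could be technical.

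Crtc2 is a coactivator of the transcription factor Creb1. It is held in the cytoplasm while it is phosphorylated by salt-inducible kinases, and cyclic AMP or calcium signals release it to the nucleus, where it binds Creb1 on cyclic AMP response elements in promoters. In skeletal muscle, Crtc and Creb1 activity is known for its link to adrenergic and fasting signals, fuel storage and fibre growth.

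Total counts were 24232450 to 34610417 per library, and 14313 to 17226 genes had a count in a library. Levels are given in CPM, which are counts scaled to the size of the library by the trimmed mean of M values. Summed over a list of 10 genes, the skeletal muscle fibre markers stood at 146444 to 217393 CPM in the GFP libraries and at 136114 to 232784 CPM in the Crtc2 libraries, so both arms held the labelled tissue. Out of 22607 genes listed, 16007 had enough counts to be tested with edgeR's quasi-likelihood test. Genes passed at a Benjamini-Hochberg adjusted p under 0.05. A log2 fold change is given with its standard error. Bulk RNA cannot tell fewer cells of a type from less RNA per cell.

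The vector effect over both diets was small in number of genes and went mostly one way. Of the genes tested 35 passed (0.219%), of which 34 were lower in Crtc2 muscle (0.212%) and 1 was higher (0.00625%). The gene that rose was Crtc2. The 34 that fell were 9 immunoglobulin genes and 25 others, mostly genes of antigen presentation, macrophages, complement and matrix, along with 3 slow, embryonic or cardiac contractile genes. Without the immunoglobulins the falls ranged from 1.75-fold to 4.47-fold. In 19 of the 35 genes no Crtc2 library overlapped any GFP library. Over all genes tested such a full separation of 6 against 6 was found for 54 lower (0.337%) and 16 higher (0.1%). In 29 of the 35 the 3 against 3 libraries also did not overlap within either diet, where 131 (0.818%) and 45 (0.281%) of all genes tested did so. At an unadjusted p under 0.05 there were 1287 genes (8.04%), 785 lower (4.9%) and 502 higher (3.14%), and the median log2 fold change of all genes tested was 0.01.

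**Figure D1:**
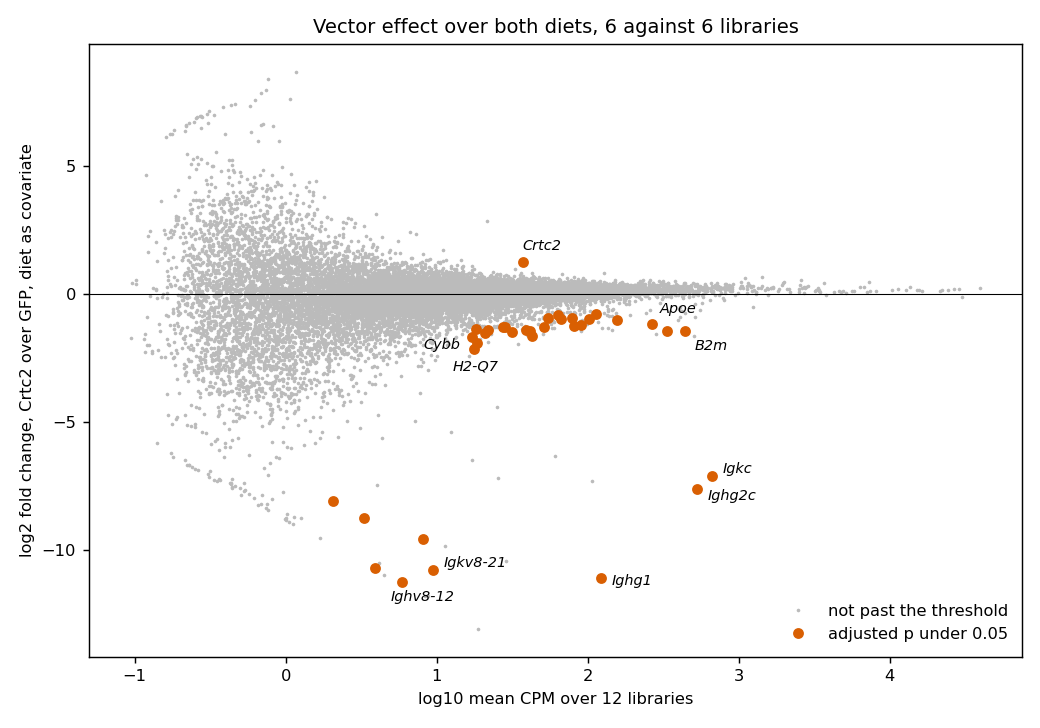
Each point is 1 of the 16007 genes tested, with its mean level over the 12 libraries (log10 CPM) on the horizontal axis and its log2 fold change, Crtc2 over GFP with diet as a covariate, on the vertical axis. Orange points are the 35 genes with an adjusted p under 0.05. Crtc2 is the only one above 0, the immunoglobulin genes lie below -7, and the other 25 lie between -2.16 and -0.81.

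Crtc2 itself was higher in every library that carried its vector. The GFP libraries ranged from 16.1 to 29.2 CPM with a median of 21.7, and the Crtc2 libraries from 31.4 to 77.9 CPM with a median of 50.5. The arms did not overlap. The gene (chromosome 3, 90254163 to 90264125) rose 2.34-fold, a log2 fold change of 1.23 ± 0.20 with an adjusted p of 0.00821 in edgeR's test. Exchanging the vector labels within each diet gave an exact two-sided permutation p of 0.005, the smallest that the 400 arrangements allow. The difference was 1.51 in fed muscle and 0.95 under ADF on the log2 scale, and the p of the difference between diets was 0.158 (edgeR, unadjusted). The fed Crtc2 libraries stood at 64.9, 58.2 and 77.9 CPM and the ADF Crtc2 libraries at 42.8, 40.6 and 31.4 CPM, while the GFP libraries of the diets overlapped. The table does not tell vector transcripts from those of the mouse's own gene.

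Of the 12 genes of the Crtc and Creb family, Crtc2 was the only one to pass, and the family's median log2 fold change was 0.23. The related coactivator Crtc1 stood at 3.13 to 13.9 CPM in GFP muscle and 7.13 to 22.3 CPM in Crtc2 muscle (0.52 ± 0.40, adjusted p 0.837 in edgeR's test). Crtc3, the other coactivator, ranged from 6.30 to 24.2 and from 14.7 to 24.9 CPM (0.37 ± 0.30), and Creb1 from 9.02 to 14.4 and from 7.58 to 20.5 CPM (0.22 ± 0.31). All 3 genes overlapped between the arms. Crem, a Creb relative that yields both activators and the inducible repressor ICER, had the second of the family's unadjusted p-values under 0.05 (1.25 ± 0.51, adjusted p 0.481 in edgeR's test). Its GFP libraries reached at most 8.58 CPM and its Crtc2 libraries from 4.46 to 16.8 CPM.

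None of 27 tested target genes of Creb1 and Crtc passed in either direction. Their median was -0.05 and 16 of the 27 lay below 0. Nr4a1, an orphan nuclear receptor induced early after cyclic AMP, stood at 60.8 to 158 CPM in GFP muscle and 117 to 178 CPM in Crtc2 muscle (0.21 ± 0.18, adjusted p 0.865 in edgeR's test). Its relative Nr4a3 had a log2 fold change of 1.05 ± 0.84 and Sik1, the kinase that returns Crtc2 to the cytoplasm, one of -0.33 ± 0.28. Fos, an immediate early gene, had -0.35 ± 0.47. The libraries of the arms overlapped in each. Of 19 tested genes of the salt-inducible kinases and cyclic AMP signalling 0 passed (median -0.01). The smallest p-values there were those of Akap1, which anchors protein kinase A at mitochondria (0.46 ± 0.16), and Adcy7, an adenylate cyclase of blood cells (-2.81 ± 0.97).

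**Figure D2:**
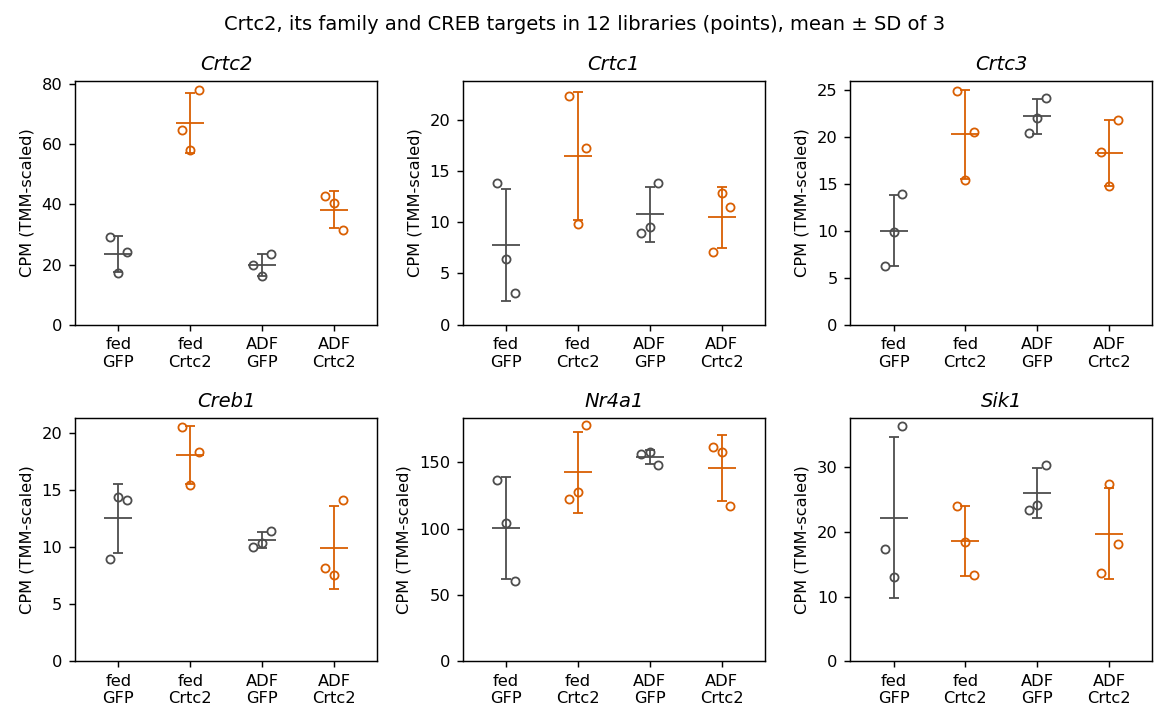
Levels (CPM, vertical axes from 0) of Crtc2, Crtc1, Crtc3, Creb1, Nr4a1 and Sik1 in the 12 libraries, as open circles by diet and vector, with the mean ± SD of 3 libraries as bars. Crtc2 is 31.4 to 77.9 CPM with its vector and 16.1 to 29.2 CPM without, and in the other 5 genes the 6 Crtc2 libraries overlap the 6 GFP libraries.

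Of 18 tested genes of peptide presentation on MHC class I, 3 fell: B2m, H2-D1 and H2-Q7. B2m, the light chain that every class I molecule needs, ranged from 464 to 894 CPM with a median of 623 in GFP muscle and from 133 to 418 CPM with a median of 219 in Crtc2 muscle, so that the arms did not overlap. It fell 2.78-fold (-1.47 ± 0.17, adjusted p 8.79e-05 in edgeR's test), the smallest adjusted p of the comparison, shared with Igkv8-21. The heavy chain gene H2-D1 went from a median of 446 CPM (344 to 659.5) to one of 144 CPM (122 to 370), a 2.74-fold fall (-1.46 ± 0.27, adjusted p 0.0433 in edgeR's test). H2-Q7, a class I heavy chain gene outside the classical set, went from a median of 24.98 CPM (6.69 to 58.4) to 3.94 CPM (2.05 to 22.3), a 4.47-fold fall (-2.16 ± 0.43, adjusted p 0.0433). Their arms overlapped over both diets, since the fed Crtc2 library of replicate 3 reached 370 CPM of H2-D1 and 22.3 CPM of H2-Q7, but not within a diet. Reads of H2 genes can be shared with near-identical copies, so how they divide among these genes is uncertain.

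None of the 18 class I genes rose, and 14 had an unadjusted p under 0.05, all of them lower. The median of the 18 was -1.21, where that of all genes tested was 0.01. H2-K1, the other classical heavy chain, had a fold change as large but missed the threshold (-1.67 ± 0.32, adjusted p 0.0638 in edgeR's test). So did Nlrc5, the transactivator of class I genes (-1.36 ± 0.35), Tap1, which pumps peptides into the endoplasmic reticulum (-1.39 ± 0.52), and Psmb8, a subunit of the immunoproteasome (-0.93 ± 0.35).

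Class I promoters are known to hold an element related to the cyclic AMP response element, bound by Creb and Atf factors within the module on which Nlrc5 acts. Promoters of 3 class I genes are shown with that of Fos, a Creb1 target that did not pass, so that the element can be seen in both. Each is the 160 bases before the gene's start, read 5′ to 3′ on the gene's strand from RefSeq on GRCm38.p6: B2m at chr2:122147527-122147686 on the plus strand, H2-Q7 at chr17:35438995-35439154 on the plus strand, H2-K1 at chr17:34000348-34000507 on the minus strand and Fos at chr12:85473730-85473889 on the plus strand. Capitals mark TGACG, searched on both strands, and in the first 3 also the core of the interferon-stimulated response element, GAAA repeated after any pair of bases.
B2m: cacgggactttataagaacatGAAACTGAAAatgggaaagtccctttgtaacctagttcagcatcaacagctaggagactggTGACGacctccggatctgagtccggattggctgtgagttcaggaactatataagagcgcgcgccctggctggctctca
H2-Q7: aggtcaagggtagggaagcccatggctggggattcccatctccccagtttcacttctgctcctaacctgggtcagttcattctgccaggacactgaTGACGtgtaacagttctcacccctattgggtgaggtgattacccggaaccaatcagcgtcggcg
H2-K1: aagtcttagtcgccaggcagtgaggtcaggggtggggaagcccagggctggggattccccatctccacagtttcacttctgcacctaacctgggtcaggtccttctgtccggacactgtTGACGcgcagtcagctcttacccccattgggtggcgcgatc
Fos: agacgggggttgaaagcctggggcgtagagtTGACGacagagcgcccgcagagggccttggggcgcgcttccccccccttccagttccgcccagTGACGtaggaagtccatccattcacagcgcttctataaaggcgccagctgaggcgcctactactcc

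TGACG began 78 bases before the start in B2m, 64 in H2-Q7 and 41 in H2-K1, and in Fos at 129 and 66 bases before it. In the 250 bases before the start it was present in 10 of 16 class I genes with a RefSeq promoter (62.5%), in 18 of 21 Creb1 and Crtc target genes (85.7%) and in 29.1% of 11096 tested genes with a promoter in the table. The promoters printed above all hold it, while the class I genes H2-Q6 and H2-T23 were among those without it. Among the changed genes 19 had a promoter and 4 held TGACG (21.1%, against the 29.1% of all): B2m, H2-D1, H2-Q7 and Cd68. The full element TGACGTCA, which contains TGACG, was in 2 of the 21 target genes, 0 of the 16 class I genes, 0 of the 19 changed genes and 2.86% of all. The interferon core, searched on both strands, was in 12 of 18 interferon-induced genes (66.7%), 3 of the 16 class I genes, 3 of the 19 changed genes (B2m, Cybb and Gbp2) and 3.34% of all. These are matches of letters only, and variants of the interferon element that depart from this exact pattern were not counted. The lack of a match in H2-Q7 and H2-K1, or in other genes, thus does not show that the promoter lacks such an element.

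Of 26 genes induced by interferon 1 fell, and the fold changes of 25 lay below 0. Gbp2, a guanylate binding protein of the response to interferon gamma, ranged from 21.8 to 60.4 CPM (median 49.2) in GFP muscle and from 9.20 to 25.9 CPM (median 15.7) in Crtc2 muscle. Its ADF GFP library of replicate 2, at 21.8 CPM, was the only one to reach into the range of the Crtc2 arm, and that library lay above all ADF Crtc2 libraries. Gbp2 fell 2.80-fold (-1.49 ± 0.27, adjusted p 0.0150 in edgeR's test). The interferon list had 10 members lower and 0 higher at an unadjusted p under 0.05 and a median of -0.95. Irf7, the factor that amplifies type I interferon (-1.86 ± 0.48), and Isg15, a ubiquitin-like antiviral protein (-2.65 ± 1.04), were among those that missed the threshold.

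The other lists of immune signalling had large medians and few or no calls. None of 9 tested genes of MHC class II passed, with 7 lower at an unadjusted p under 0.05 and a median of -1.48: Cd74, the invariant chain, had -1.58 ± 0.46 and H2-Ab1 -1.34 ± 0.39. Of 20 tested chemokines and cytokines 0 passed and 4 were lower at an unadjusted p under 0.05 (median -1.21), with Ccl21a, a lymph vessel chemokine, at -1.83 ± 0.59. Of 15 tested complement genes 2 fell, and 8 were lower at an unadjusted p under 0.05 (median -1.09). C1qc, a chain of C1q, went from a median of 68.3 CPM (58.7 to 103) to 28.6 CPM (17.9 to 47.3) without overlap of the arms, a 2.48-fold fall (-1.31 ± 0.22, adjusted p 0.00821 in edgeR's test). Serping1, the inhibitor of C1, went from 142 CPM (87.7 to 176) to 64.9 CPM (51.2 to 89.6), a 1.97-fold fall (-0.98 ± 0.18, adjusted p 0.0177), and its arms overlapped. The other 2 chains, C1qa and C1qb, had -1.58 ± 0.34 and -1.35 ± 0.33 and missed the threshold.

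The 9 immunoglobulin genes that fell, which antibody-secreting B cells express, had the largest fold changes of the genes that passed. Igkc, the constant region of kappa light chains (chromosome 6, 70726435 to 70726966), ranged from 146 to 2917 CPM with a median of 1286 in GFP muscle and from 4.37 to 16.4 CPM with a median of 7.12 in Crtc2 muscle. That is 249834 counts over the GFP libraries against 1466 over the Crtc2 libraries, a ratio of 155 after scaling (-7.12 ± 0.95, adjusted p 0.0249 in edgeR's test). Ighg2c, the constant region of an IgG heavy chain, had 209984 against 841 counts, a ratio of 226 (-7.61 ± 1.12, adjusted p 0.0421). Of these counts 135270 lay in ADF GFP replicate 3, and without that library the ratio was 102. Ighg1, another IgG constant region, had 45039 against 17 counts, a ratio of 2403 with a 95% interval of 1500 to 4125 (adjusted p 0.0170), and of 1327 without fed GFP replicate 3, which held 24300 of the counts. Intervals of ratios are exact binomial and cover counting error only, which for these genes is far smaller than the spread of the GFP libraries. They take each count as independent. Most low counts were even, so counts may stand for fewer fragments, and the intervals may be too narrow. In each of these genes the lowest GFP library was above the highest Crtc2 library.

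The 6 other immunoglobulin genes that fell are 5 variable segments and 1 joining segment. Ighv8-12 had 2347 counts over the GFP libraries and 0 in each Crtc2 library, which is at least 105-fold lower against a floor of 3 counts per library (adjusted p 0.00926 in edgeR's test). ADF GFP replicate 3 held 1758 of the counts, and without it the bound was 40.7-fold. Ighv1-76 had 1423 against 0, at least 69.4-fold lower by the same floor (adjusted p 0.00568), and at least 34.1-fold without fed GFP replicate 3, which held 822 of the counts. Igkv8-21 had 3771 against 1 count, a ratio of 3420 with an interval of 613 to 135107 (adjusted p 8.79e-05). Its ratio was 1497 without ADF GFP replicate 3, and without ADF Crtc2 replicate 3, which held the 1 count, it was at least 166-fold lower by the floor. Igkv6-17 had 1246 against 2, Igkj2 836 against 2 and Igkv9-124 3077 against 3 counts. ADF GFP replicate 3 held 614 of the counts of Igkj2, whose ratio of 379 was 127 without that library. Igkv6-17 was at least 58.5-fold lower by the floor without fed Crtc2 replicate 3, which held its 2 counts. Igkv9-124 was at least 146-fold lower without fed Crtc2 replicate 1, which held its 3 counts. It had no count in ADF GFP replicate 2, so its arms overlapped. Variable segments share reads with near-identical copies, and a segment passed the filter on low counts only through the GFP libraries, so the number of segments that fell is no measure of their own.

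The constant regions that did not pass differed widely. Ighg2b had 41349 against 214 counts, a ratio of 175 (adjusted p 0.0565 in edgeR's test) that was 114 without ADF GFP replicate 3 and 282 without fed Crtc2 replicate 1. Ighg3 had 6697 against 0, at least 333-fold lower by the floor, with an adjusted p of 0.359. Of the 6697 counts of Ighg3, 4512 lay in the fed GFP library of replicate 3, without which the bound was 130-fold, and of the 10751 counts of Iglc1, a lambda constant region, 9436 lay in the ADF GFP library of replicate 3. Ighm, the constant region of IgM that naive B cells carry, had 23484 against 7589 counts, a ratio of 2.81 (-1.46 ± 0.57, adjusted p 0.529). The fed Crtc2 library of replicate 3 held 132 CPM of Ighm, within the GFP range of 46.9 to 169 CPM, and the other 5 Crtc2 libraries held 12.4 to 53.7 CPM. Without that library the ratio of Ighm was 4.42. Jchain, which joins antibody chains, went from a median of 67.1 CPM (11.7 to 361) to 1.17 CPM (0.704 to 2.84) and missed the threshold (-6.34 ± 1.03, adjusted p 0.0552).

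The deposited counts list 155 immunoglobulin genes, of which 120 had no count in the 6 Crtc2 libraries and 3 had none in the 6 GFP libraries. Of all genes listed 1970 had no count in the Crtc2 arm (8.71%) and 1910 had none in the GFP arm. Summed, the immunoglobulins took 0.0430 to 1.01% of the counts of a GFP library and 0.00306 to 0.0159% of a Crtc2 library. The sum was 406 to 9514 CPM in GFP muscle and 29.6 to 162 CPM in Crtc2 muscle. The GFP libraries differed widely among themselves: ADF GFP replicate 2 held the lowest and ADF GFP replicate 3 the highest sum, and the lowest was above every Crtc2 library.

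Several genes known from macrophages and related myeloid cells were among the 34 that fell. Cd68, Csf1r and C1qc are on the list of macrophage markers, and the others were grouped here after their values were seen. Apoe, an apolipoprotein that macrophages secrete, ranged from 266 to 542 CPM (median 363) in GFP muscle and from 143 to 211 CPM (median 150) in Crtc2 muscle. The arms did not overlap, and it fell 2.28-fold (-1.19 ± 0.16, adjusted p 0.00111 in edgeR's test). Csf1r, the receptor that keeps macrophages alive, went from 37.1 CPM (19.6 to 57.8) to 16.7 CPM (8.51 to 19.5), a 2.47-fold fall. Mpeg1, a pore-forming protein of macrophages, went from 61.5 CPM (36.5 to 118) to 20.8 CPM (8.60 to 33.2), a 3.10-fold fall. In both the highest Crtc2 library lay below the lowest GFP library, and both had an adjusted p of 0.0433 in edgeR's test.

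A pair of adaptors that couple myeloid receptors to Syk kinase fell. Tyrobp went from a median of 29.1 CPM (22.5 to 37.7) to 10.5 CPM (4.98 to 21.9), without overlap (-1.55 ± 0.31, adjusted p 0.0320 in edgeR's test). Fcer1g went from 25.1 CPM (15.99 to 33.0) to 6.22 CPM (3.97 to 17.1), with the fed Crtc2 library of replicate 3 above the lowest GFP library (-1.70 ± 0.31, adjusted p 0.0150). Cybb, the catalytic subunit of the phagocyte oxidase, had -1.93 ± 0.36, Cd68, a lysosomal protein of macrophages, -1.42 ± 0.30, and Axl, a receptor for the clearance of dying cells, -0.96 ± 0.20. Lrp1, a scavenger receptor that is not limited to macrophages, had -0.99 ± 0.20, and Ssc5d, a secreted scavenger protein, -1.37 ± 0.27. All of these passed, with adjusted p-values from 0.0205 to 0.0477.

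Of 15 macrophage markers 3 fell (Cd68, Csf1r and C1qc), 7 were lower at an unadjusted p under 0.05, and the median was -1.31. The fold changes of 13 lay below 0, and those of Cd163, a scavenger receptor (0.34 ± 1.04), and Itgam, an integrin chain (0.20 ± 0.94), lay above it. Their summed level was 425 to 880 CPM in GFP muscle and 198 to 356 CPM in Crtc2 muscle, and no defining marker was at 0 in either arm. The sum of the Crtc2 libraries lay below every GFP library. The sum of 13 B and plasma cell markers was 353 to 7765 CPM against 38.6 to 170 CPM, without overlap. That of 18 T and NK cell markers was 45.5 to 175 CPM against 6.79 to 128 CPM, and the arms overlapped, since fed Crtc2 replicate 3 held 128 CPM. Ms4a1 and Pax5, markers of B cells, had no count in any Crtc2 library. Of 12 tested B and plasma cell markers 2 fell (Igkc and Ighg2c) with a median of -5.27, and of 18 T and NK cell markers 0 passed with a median of -2.41. The sum of 8 dendritic cell markers was 24.6 to 51.5 CPM against 0.864 to 31.1 CPM (0 of 8 passed, median -1.73). The part of these cell markers in the falls of antigen presentation, interferon, complement and immunoglobulin genes was not tested.

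**Figure D3:**
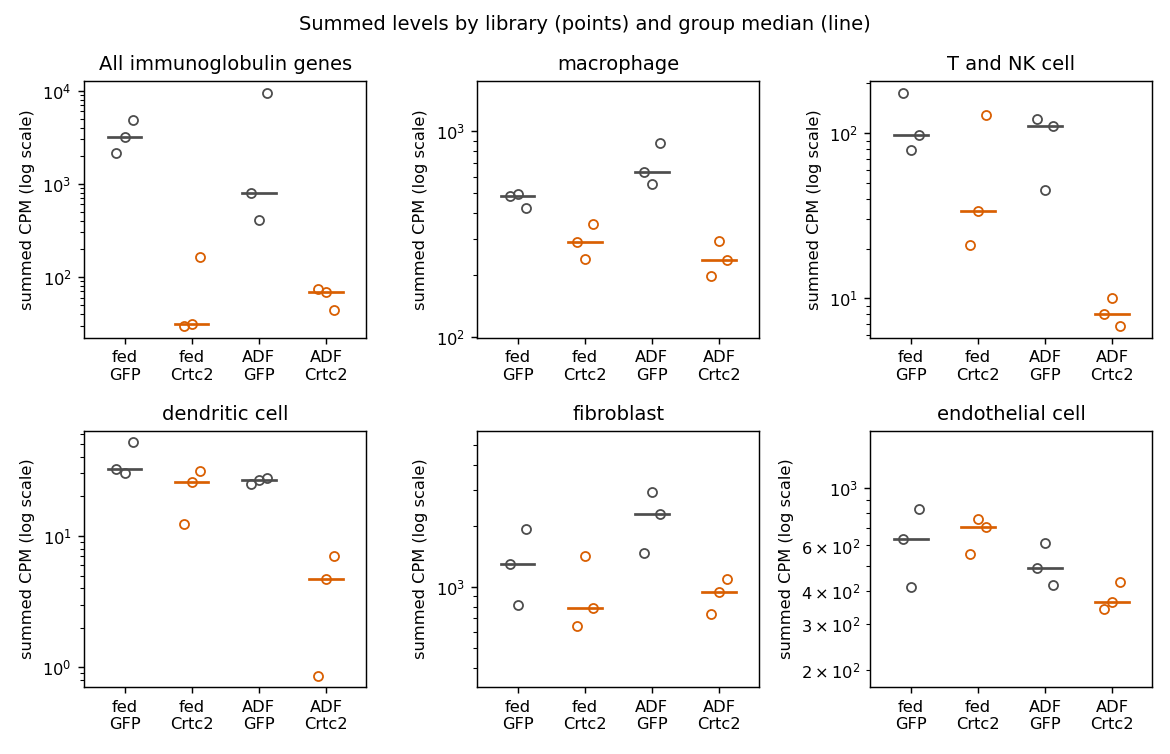
Summed CPM (log scale) of all immunoglobulin genes and of the markers of macrophages, T and NK cells, dendritic cells, fibroblasts and endothelial cells, 1 circle per library by diet and vector, with the median of 3 libraries as a line. The immunoglobulin sum is 406 to 9514 CPM with GFP and 29.6 to 162 CPM with Crtc2. The macrophage sums of the arms do not overlap either, while the T and NK cell, dendritic cell, fibroblast and endothelial sums do.

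Of 25 tested matrix genes 3 fell: Thbs4, Mmp2 and Timp2. Thbs4, a thrombospondin of tendon and muscle attachment, ranged from 138 to 313 CPM (median 181) in GFP muscle and from 83.7 to 118 CPM (median 99.9) in Crtc2 muscle, without overlap, and fell 2.02-fold (-1.02 ± 0.17, adjusted p 0.00821 in edgeR's test). Mmp2, a gelatinase, fell 2.31-fold from a median of 116 CPM (62.6 to 220) to 45.5 CPM (39.6 to 77.7), and 1 Crtc2 library, ADF replicate 3, reached into the GFP range. Timp2, its inhibitor and partner in activation, fell 1.75-fold from 145 CPM (77.8 to 220) to 76.0 CPM (62.4 to 115). Of the 25 matrix genes 17 were lower and 0 higher at an unadjusted p under 0.05. All 25 fold changes were below 0, from -1.21 to -0.39, with a median of -0.98. Col1a1 and Col3a1, the main fibrillar collagens, had -1.03 ± 0.35 and -0.92 ± 0.34 and missed the threshold, as did Fn1, fibronectin (-1.20 ± 0.29).

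Ly6a, the surface protein Sca-1 of fibroblast progenitors and endothelium, fell 1.92-fold from a median of 106 CPM (65.2 to 161) to 49.3 CPM (38.0 to 90.4) (-0.94 ± 0.17, adjusted p 0.0154 in edgeR's test). It was the 1 of 10 fibroblast markers to pass (median -0.93), and their sum was 819 to 2935 CPM in GFP muscle against 641 to 1423 CPM in Crtc2 muscle. Thbs4 was the 1 of 6 tendon markers to pass (median -1.03), with sums of 175 to 570 CPM against 113 to 193 CPM. Anxa5, a calcium-dependent phospholipid binding protein, fell 2.76-fold (-1.46 ± 0.28, adjusted p 0.0274), and its arms overlapped. Acta2, smooth muscle actin, fell 1.78-fold (-0.83 ± 0.17, adjusted p 0.0433) and was the 1 of 8 smooth muscle and pericyte markers to pass (median -0.51). None of 11 endothelial markers passed (median -0.17, sums of 415 to 828 CPM against 342 to 761 CPM). The part of fibroblast and tendon markers in the falls of matrix genes was not tested.

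Of the markers of other cells, none of 8 adipocyte, 8 Schwann cell and nerve, 6 satellite cell, 5 mast cell, 3 neutrophil and 6 erythroid genes tested passed, with medians of -0.19, -0.01, -0.60, 0.87, -1.25 and -0.46. The sums of these lists overlapped between the arms over both diets. Some medians differed between fed and ADF muscle: -0.66 and 1.22 for Schwann cell and nerve, 0.36 and -1.18 for satellite cell, and 1.38 and -0.13 for mast cell markers. Under ADF the Schwann cell and nerve sums were 79.5 to 115 CPM with GFP and 130 to 263 CPM with Crtc2, without overlap. The difference between diets was not tested for lists.

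**Figure D4:**
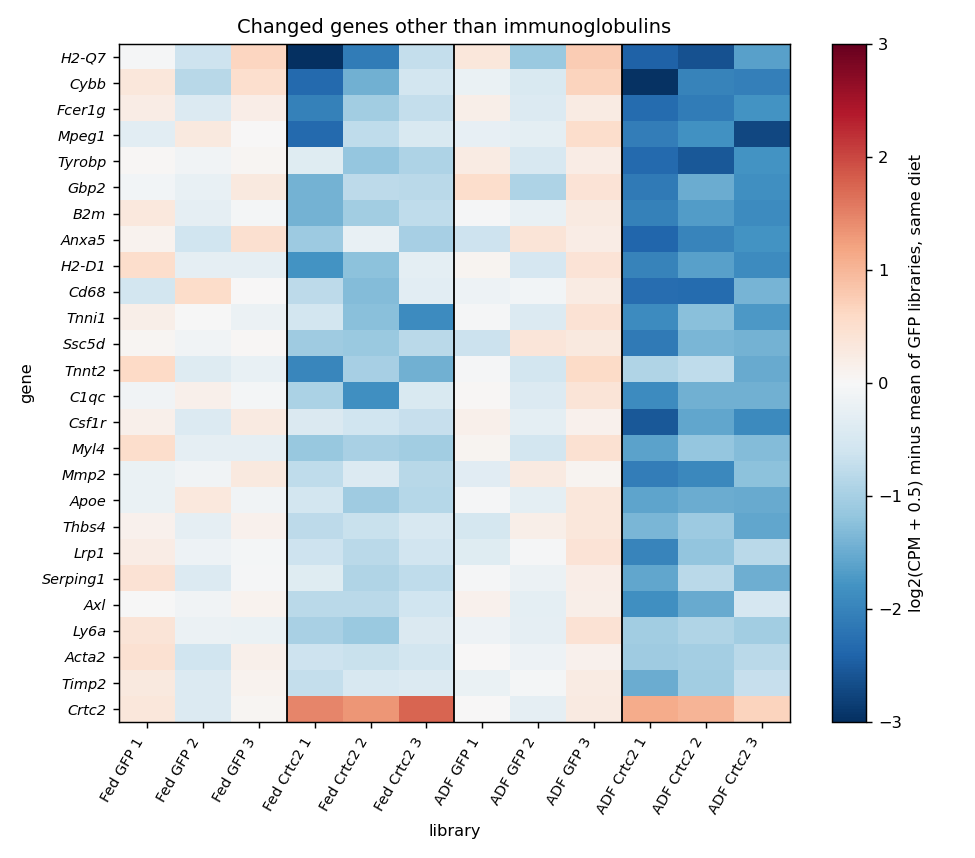
The 26 changed genes other than immunoglobulins in the 12 libraries. Each cell is log2(CPM + 0.5) minus the mean of the GFP libraries of the same diet, with blue for lower and red for higher, and the colour scale ends at -3 and 3. Crtc2 is the 1 red row in the Crtc2 libraries, and in the other 25 rows the ADF Crtc2 libraries are mostly darker than the fed ones.

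Of the contractile genes known from slow, embryonic or cardiac muscle, 3 fell: Myl4, Tnni1 and Tnnt2. Tnni1 is on the list of slow fibre genes and the others are on no list. Myl4, the atrial and embryonic essential light chain of myosin, ranged from 55.4 to 197 CPM (median 113) in GFP muscle and from 26.3 to 69.9 CPM (median 49.3) in Crtc2 muscle. It fell 2.39-fold (-1.26 ± 0.18, adjusted p 0.00243 in edgeR's test), with arms that overlapped over both diets but not within either. Tnni1, the slow fibre inhibitor of the troponin complex, went from a median of 59.4 CPM (34.4 to 73.1) to 18.0 CPM (12.01 to 43.4), a 2.66-fold fall (-1.41 ± 0.23, adjusted p 0.00821). Tnnt2, the cardiac troponin T that developing muscle also makes, went from 39.9 CPM (19.01 to 74.3) to 15.6 CPM (9.64 to 24.5), a 2.49-fold fall (-1.31 ± 0.26, adjusted p 0.0320). Both overlapped between the arms and did not overlap within a diet.

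Of 11 tested slow fibre genes Tnni1 alone passed, and 5 were lower at an unadjusted p under 0.05 (median -0.75). Tnnt1, the slow troponin T (-1.19 ± 0.29), Tnnc1, the slow and cardiac troponin C (-1.36 ± 0.43), and Atp2a2, the slow and cardiac calcium pump (-0.75 ± 0.22), missed the threshold. Myl3, a slow and ventricular light chain of myosin, had 0.79 ± 0.42. None of 14 fast fibre genes passed (median 0.15), and Myh4, the fastest myosin heavy chain, had -0.14 ± 0.25. None of 22 genes of regeneration, embryonic muscle and denervation passed, though 20 of them lay below 0, with a median of -0.50 and 6 lower at an unadjusted p under 0.05. Mymk, the fusion protein myomaker of myoblasts, stood at 11.8 to 23.4 CPM in GFP muscle and 1.34 to 12.7 CPM in Crtc2 muscle (-1.97 ± 0.43) and lay just outside the threshold at an adjusted p of 0.0501 in edgeR's test. Myog, the factor of myoblast differentiation, had -1.24 ± 0.32, and Myh3, the embryonic myosin heavy chain, -1.02 ± 0.35. Of 19 cell cycle genes 0 passed and 5 were lower at an unadjusted p under 0.05 (median -0.87), with Mki67, a marker of dividing cells, at -2.39 ± 0.99.

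No gene of fuel use passed. Of 26 genes of fatty acid uptake and oxidation all had fold changes above 0, from 0.01 to 0.65, with a median of 0.24, and 6 were higher at an unadjusted p under 0.05. Lpl, which frees fatty acids from lipoproteins, stood at 190 to 471 CPM in GFP muscle and 205 to 714 CPM in Crtc2 muscle (0.51 ± 0.15, adjusted p 0.219 in edgeR's test). Of 32 nuclear genes of oxidative phosphorylation 10 were higher at an unadjusted p under 0.05, with a median of 0.25, and all 32 fold changes were above 0, the highest at 0.43. Cox5a, a subunit of cytochrome oxidase, had 0.43 ± 0.13 and Ndufa4, its neighbour in that complex, 0.42 ± 0.13. In these lists the median lay near 0 in fed muscle (0.06 for fatty acid oxidation and under 0.01 in size for oxidative phosphorylation) and at 0.41 and 0.45 under ADF.

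The other lists of metabolism had medians within 0.32 of 0. They were 0.19 for 20 genes of the tricarboxylic acid cycle and pyruvate dehydrogenase, 0.18 for 26 of glucose uptake, glycolysis and glycogen, 0.14 for 22 of triglyceride synthesis and lipolysis, 0.11 for 18 regulators around PGC-1, and -0.31 for 18 of fatty acid and sterol synthesis. Ppargc1a, the gene of PGC-1 alpha, had 0.01 ± 0.26. Pdk4, which blocks pyruvate dehydrogenase by phosphorylation, had 0.65 ± 0.31 (adjusted p 0.634 in edgeR's test). Pgam2, the muscle phosphoglycerate mutase, had 0.41 ± 0.13 and Srebf2, the regulator of sterol synthesis, -0.55 ± 0.26.

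Lists of growth, breakdown and stress had no calls either. The medians were 0.05 for 21 genes of insulin, IGF and myostatin signalling, 0.19 for 18 ubiquitin ligases and FoxO genes, 0.03 for 22 of autophagy and lysosomes, 0.13 for 20 of calcium handling, 0.14 for 19 of the sarcomere and dystrophin complex, 0.06 for 20 of the unfolded protein response and heat shock, 0.06 for 17 of oxidative stress, -0.04 for 17 clock genes and 0.16 for 12 nuclear-retained long noncoding RNAs. Igfbp5, an IGF binding protein, had -0.74 ± 0.18 and Igf2, a growth factor, -0.69 ± 0.18, both with adjusted p-values above 0.12 in edgeR's test. Fbxo32, the ligase atrogin-1, had 0.25 ± 0.18 and Hmox1, heme oxygenase, -1.24 ± 0.52. Neat1, the RNA of paraspeckles, had 0.63 ± 0.14 with an adjusted p of 0.0675, and within each diet its Crtc2 libraries lay above its GFP libraries.

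**Figure D5:**
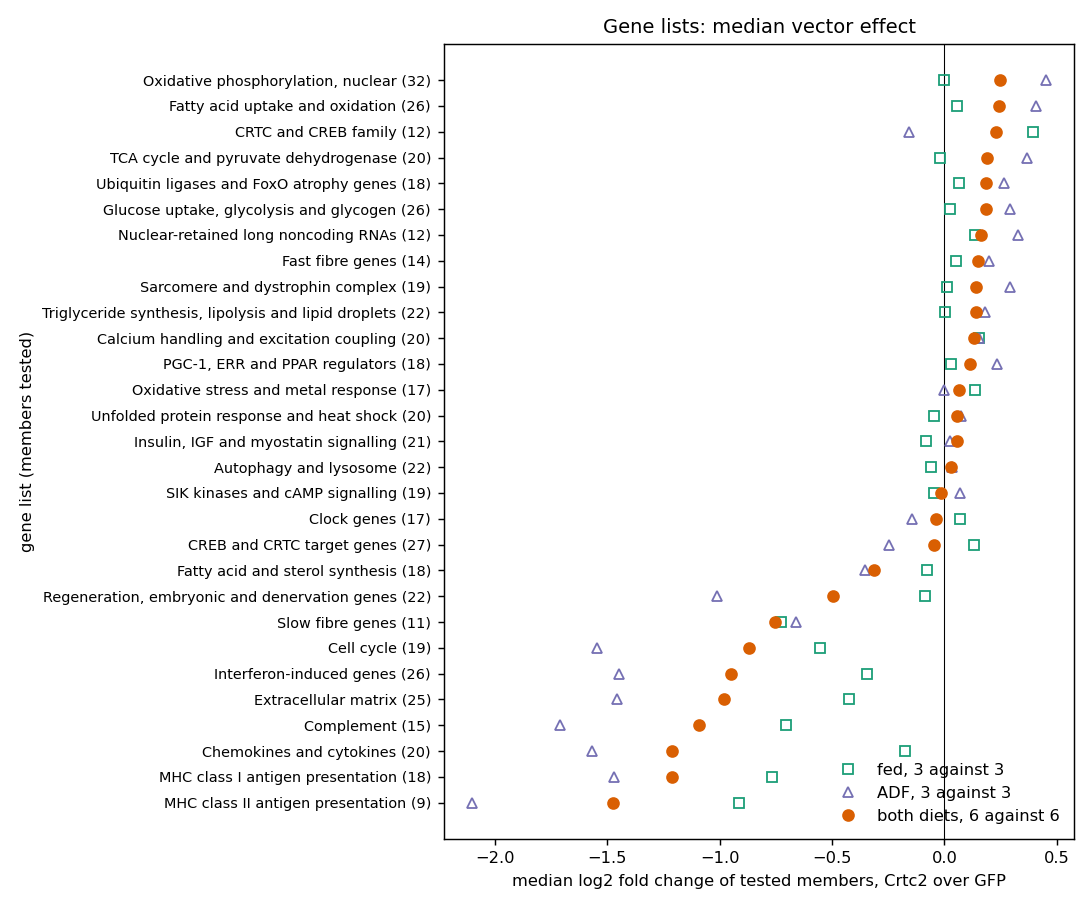
Median log2 fold change (Crtc2 over GFP) of the tested members of 29 gene lists, with the number tested in parentheses. Filled circles are both diets (6 against 6 libraries), squares fed muscle and triangles ADF muscle (3 against 3 each). The immune and matrix lists lie to the left of 0, with the ADF medians farther left than the fed ones, and the metabolic lists lie near 0.

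The pooled values average fold changes that were estimated in 2 diets. These estimates differed in size for many of the 35 genes, but no difference between diets passed after adjustment. All 35 genes had the same direction in both diets, and 28 of the 34 that fell had the larger fold change under ADF. These genes were picked by a fit pooled over the same libraries, which favours 1 direction in both diets. The shares over all genes tested are not given, so neither count is a result of its own. B2m had -1.07 in fed muscle and -1.88 under ADF, Tyrobp -0.80 and -2.31, Mmp2 -0.68 and -1.73, and Mpeg1 -1.02 and -2.25. The exceptions were Tnnt2, with -1.50 in fed muscle and -1.13 under ADF, and 5 immunoglobulin genes. Of the 35 genes 9 had an unadjusted p under 0.05 for the difference between diets (Mpeg1, Tyrobp, B2m, Thbs4, Mmp2, Csf1r, Cd68, Anxa5 and Apoe), where 7.75% of all genes tested did. No gene passed that test after adjustment (0 of 16007 in edgeR's test, 1240 at an unadjusted p under 0.05, and 215 with DESeq2). In the fit of 4 group means, whose spread comes from all 12 libraries, 0 genes passed between the fed groups (0%, 871 at an unadjusted p under 0.05, 5.44%) and 116 between the ADF groups (0.725%).

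The calls leaned on the ADF Crtc2 libraries. Without ADF Crtc2 replicate 1, 2 or 3 the comparison called 8, 12 and 11 genes, and without ADF GFP replicate 3 it called 20. Without fed GFP replicate 2 or fed Crtc2 replicate 3 it called 92 and 84. B2m, Apoe, Myl4, Crtc2, Igkv6-17 and Tnni1 passed with any 1 library left out, with largest adjusted p-values from 0.00282 for B2m to 0.0493 for Tnni1 (edgeR). The other 29 missed the threshold without 1 or more of the libraries. C1qc did so without ADF Crtc2 replicate 1 (adjusted p 0.0502), Ighv1-76 without fed GFP replicate 3 (0.0543) and Igkv8-21 without ADF Crtc2 replicate 3 (0.118). Igkj2 missed it in 6 of the 12 leave-outs, with the largest adjusted p (0.647) without ADF GFP replicate 3, and Igkv9-124 in 8, with the largest (0.477) without fed Crtc2 replicate 1. Cd68 and Acta2 missed it in 10, and Timp2, Csf1r, Axl and H2-D1 in 9.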

How the data were processed

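RNA sequencing covered 12 libraries of mouse tibialis anterior in 4 groups of 3. The deposited values are whole-number read counts for each Ensembl gene, not normalized. Per the submitters' processing notes the tools were Subread 1.6.1 with featureCounts, HISAT2 2.0.5, DESeq2 1.18.1 and SAMtools 1.7, on builds GRCm38 and mm10, with no role given for any of them. The annotation release, strand setting and treatment of duplicates are not given in the sources used here, so reads of overlapping antisense genes may not be told apart. Per the labels' protocols a directional NEBNext and a stranded TruSeq kit were both in use, and which libraries came from which is not stated. A row without a gene symbol held 0.0555% of the counts. Of the counts from 2 to 21 in a library, 68.9 to 74.7% were even, so low counts may stand for fewer fragments than printed. Gene positions are from GENCODE mouse release 21, in which 22582 of the 22607 genes were found.

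The test used edgeR 4.0.16 under R 4.3.3: filterByExpr over the 4 groups, TMM scaling, an additive model of diet and vector, a robust quasi-likelihood fit and Benjamini-Hochberg adjustment over 16007 genes. The steps were tested on simulated data in which scatter depended on a gene's level alone. That check does not cover genes with most of their counts in 1 library, such as some immunoglobulin genes. A fold against an arm at 0 used a floor of 3 counts per library, which covers counting error only and equals 0.0814 to 0.130 CPM. If counts stand for fewer fragments, this floor may be too low and the bounds too high. DESeq2 1.42.0 and limma 3.58.1 (voom), other scalings, filters and models, contrasts within a diet and leaving out each library were alternatives.

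The members, the 29 gene lists and the 15 marker lists were chosen with earlier results of these data known. Lists are therefore described by counts and medians without a test, and summed levels carry no p although an exact test had been planned for them. The genes named are the Crtc and Creb family, the 15 largest rises and falls that passed with libraries that do not overlap within either diet and a mean of at least 2 CPM, up to 6 members per list that passed or else the 2 with the smallest p, and 16 genes named whatever their result. The rest of the 35 genes and further list members were named after their values were seen.

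Libraries of a group differed by more than counting noise in every pair. Same-numbered libraries of a diet did not deviate together (correlations from -0.123 to 0.0945), so the replicate numbers were not used as pairs.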

Additional observations from a re-analysis of the deposited data

Results flagged for a closer look

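Of 100 values checked over arms of 6 libraries, 15 lay far from the rest of their arm. The limit used flags about 1 in 20 by chance where values are independent and normally distributed. That rate need not hold here, since each arm mixes 2 diets and many values belong to related genes. In the Crtc2 arm the flags of Igkv6-17, Igkv8-21 and Igkv9-124 rest on 1 to 3 counts in 1 library, with 0 in the other 5. In the Crtc2 arm the fed library of replicate 3 held 127.7 CPM of T and NK cell markers and 170.1 CPM of B and plasma cell markers, 369.7 CPM of H2-D1, 22.28 CPM of H2-Q7 and 0.07403 CPM of Igkv6-17, each above the other 5 libraries. The ADF Crtc2 library of replicate 3 was high in Mmp2 (77.69 CPM) and held the only count of Igkv8-21 in that arm (0.03556 CPM). The fed Crtc2 library of replicate 1 held the only counts of Igkv9-124 in the arm (0.1173 CPM).

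In the GFP arm the ADF library of replicate 3 was high in Ighg2c (3672 CPM), Ighv8-12 (47.72 CPM), Igkj2 (16.67 CPM) and Igkv8-21 (66.83 CPM). The fed GFP library of replicate 3 was high in Ighg1 (818.7 CPM) and in the sum of dendritic cell markers (51.48 CPM), and that of replicate 1 in the sum of Schwann cell and nerve markers (276.5 CPM).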

How the results depend on the processing

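The 35 calls (34 lower) became 264 (225 lower, 39 higher) with DESeq2, 292 (272 lower) without the filter on low counts, 79 (75 lower) as the average contrast of 4 group means, 8 (8 lower) without the diet term, 0 (0 lower) for the fed contrast and 116 (104 lower) for the ADF contrast, both from the fit of 4 group means over all 12 libraries. Leaving out 1 library gave 8 to 92 calls (7 to 89 lower). RLE factors gave 39, library totals 36, a mean of at least 10 CPM 41 and voom 25. Library totals moved the median of all genes to -0.10. Of the 35 genes, 33 were shared with DESeq2, 34 with the average contrast, 32 with library totals, 31 with the replicate block (47 calls), 16 with voom and 7 with no diet term. The block is given although the numbers do not pair the libraries. The difference between diets had 0 calls, 215 with DESeq2 and 0 to 3 when 1 library was left out (3 without fed GFP replicate 2). All 35 genes kept their direction in the fed and ADF contrasts, and each of them missed the threshold under at least 1 setting, the fed contrast included. Among named genes that did not pass, some changed direction between the diets. Crtc3 stood at 20.4 to 24.2 CPM in ADF GFP muscle and 14.7 to 21.8 CPM in ADF Crtc2 muscle, lower with Crtc2. The median of the Crtc and Creb family was 0.39 in fed muscle and -0.16 under ADF. The causes were not tested. Depth limits the fold of the immunoglobulin segments at 0 in Crtc2 muscle, and with 6 libraries an arm a p that misses the threshold does not show that levels were alike.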

Other observations

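Of 14710 genes with at least 100 counts over the GFP libraries, 150 had no count in the 6 Crtc2 libraries, and of 14239 genes with at least 100 counts over the Crtc2 libraries, 57 had none in the 6 GFP libraries. Of the 150, 48 were immunoglobulin genes and 102 were not. Those of the 102 with the most counts, named after their values were seen, were Derl3 with 409 counts, a factor of protein degradation at the endoplasmic reticulum of secretory cells, Bhlha15 with 399, the secretory cell factor Mist1, and the uncharacterized A530030E21Rik with 324. The B cell genes Ms4a1 and Tnfrsf13c, the receptor for the survival factor BAFF, were also among them.

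Some genes outside the lists had all 6 Crtc2 libraries on one side of all 6 GFP libraries without passing the threshold, and were named after their values were seen. Itga4, an integrin of leukocytes, stood at a mean of 14.0 CPM in GFP muscle and 3.98 CPM in Crtc2 muscle (-1.87 ± 0.43, adjusted p 0.0751 in edgeR's test). Fcgr2b, the inhibitory Fc receptor of B cells and myeloid cells, stood at 11.9 and 3.62 CPM (-1.89 ± 0.47). Nmnat1, a nuclear enzyme of NAD synthesis, stood at 26.5 and 45.3 CPM (0.79 ± 0.21, adjusted p 0.137) and Snx3, a sorting nexin of endosomes, at 78.8 and 113 CPM (0.52 ± 0.15). The background of this separation was 0.337% of the genes tested for lower and 0.1% for higher libraries.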
